A study of Mus musculus with 2 samples.

Results

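The genes described here are 10 target genes of the transcription factor p53, namely Cdkn1a, Ccng1, Mdm2, Phlda3, Trp53inp1, Bax, Bbc3, Pmaip1, Gdf15 and Sesn2. They were read in whole mouse kidneys at postnatal day 3. Every probe set whose annotation names 1 of these genes alone was taken, which gave 17 of the 45037 probe sets of the array and 10 of 20660 genes. The comparison sets 1 kidney sample of the B6C3Fe a/a-bpck mutant, which develops polycystic kidney disease (tubules widen into fluid-filled cysts), against 1 wild-type sample. Both were kidney at postnatal day 3, with no treatment named. Expression was measured with the Affymetrix Mouse 430 2.0 array, on which each transcript is read by probe sets of short oligonucleotides, with 1 array per group and no replicate. The labels name no strain for the wild type, no mutated gene, and neither the sex nor the number of animals behind a sample. No test was possible, the variation between animals is unknown, and each difference below describes this pair of arrays. Gdf15 and Pmaip1 were chosen by their differences between these arrays, and the others of the list were selected with those values known, so the place of both genes at its top is a description and not a finding.

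p53 is held at a low level by the ubiquitin ligase MDM2 and accumulates after DNA damage and other stresses. It then switches on genes that halt the cell cycle, genes that release cytochrome c from mitochondria and start apoptosis, and genes that adjust metabolism or feed back on p53 itself. Several of these genes also answer to other signals: Gdf15, Sesn2, Bbc3 and Pmaip1 are known targets of the integrated stress response as well. In the developing kidney p53 takes part in maintaining nephron progenitors.

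The pro-apoptotic gene Pmaip1 and the stress cytokine gene Gdf15 were more than 2-fold higher in the mutant kidney, and the other 8 genes were less than 2-fold apart on their brightest probe set. Cdkn1a, the cell cycle inhibitor p21, was higher by a smaller amount on both of its probe sets. On their brightest probe sets Ccng1 (0.16 on the log2 scale) and Bax (0.07) were also higher, and Sesn2 (-0.04, but 0.03 with array medians set equal), Phlda3 (-0.18), Mdm2 (-0.22), Trp53inp1 (-0.22) and Bbc3 (-0.55) were lower. The genes of the list thus differed in direction. In whole tissue, fewer cells of a type and less RNA per cell cannot be told apart, nor can more cells and more RNA per cell.

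**Figure D1:**
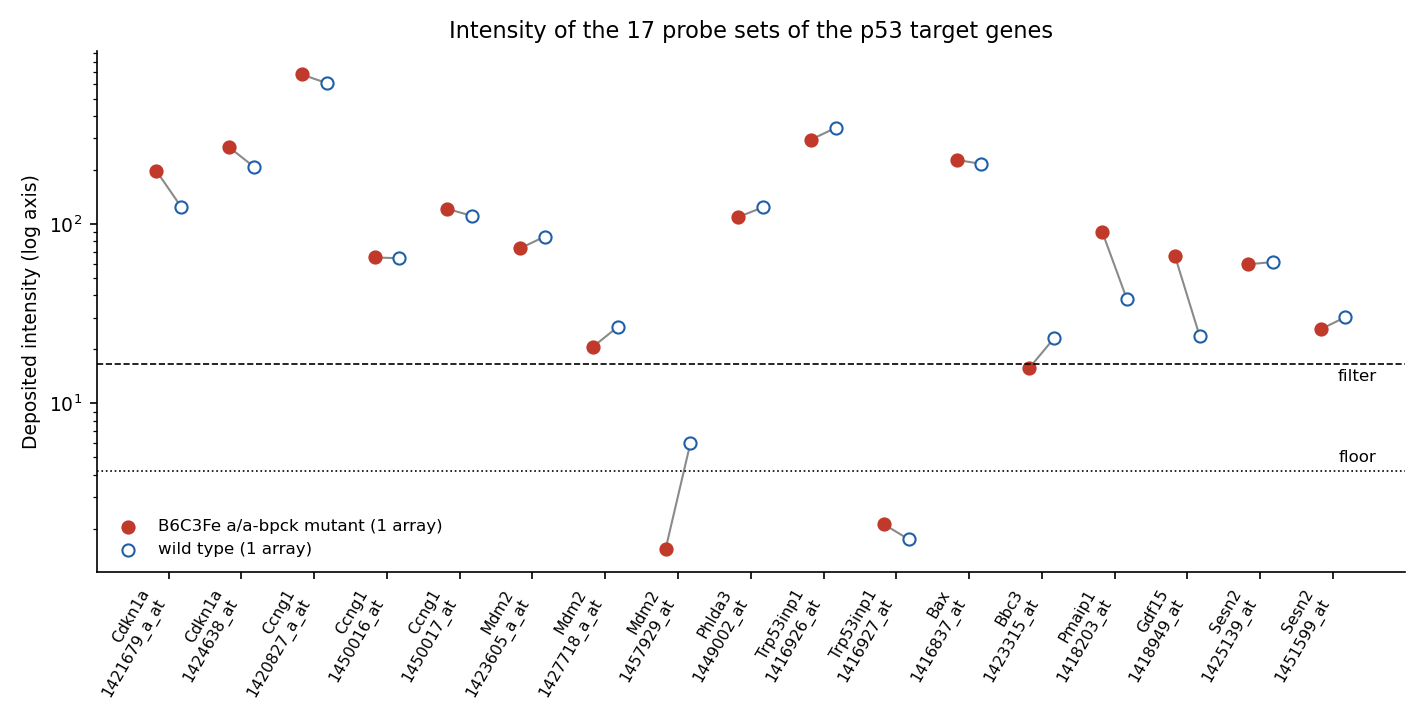
Deposited intensity (log axis) of the 17 probe sets, with the mutant array as filled red points and the wild-type array as open blue points, 1 array each. The steepest joins above the filter line at 16.53 belong to Pmaip1 (90.3 in the mutant and 38.0 in the wild type) and Gdf15 (66.2 in the mutant and 23.7 in the wild type), while the dotted floor line at 4.2 lies above both values of 1 Trp53inp1 probe set.

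Values are the authors' expression index, a linear intensity per probe set. An intensity depends on the probes, so it is compared between arrays and never between genes. Readings below 4.2 (20th percentile of the pooled arrays) were raised to 4.2 before log2 was taken, and differences are mutant minus wild type. The filter kept probe sets that read 16.53 or more, the overall median, in at least 1 array. In all, 15 of the 17 probe sets passed, and the other 2 were a dim probe set of Mdm2 and one of Trp53inp1. At least 1 probe set of each gene passed.

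Of the 15 probe sets, 2 were at least 2-fold apart, both higher in the mutant. Over all 21422 single-gene probe sets above the filter 1.12% were at least 2-fold apart, and 0.523% were at least 2-fold higher. None of the 15 was at least 2-fold lower, as 0.593% of all were. At 1.5-fold, 1 Cdkn1a probe set joined them, making 3, where 5.49% of all probe sets reached 1.5-fold, 2.2% higher and 3.29% lower. None of the 15 was 1.5-fold lower. By sign alone 8 of the 15 were higher and 7 lower, against 46.4% higher over all. The median log2 difference was 0.00 over the 17 member probe sets (95% binomial interval over probe sets -0.22 to 0.16, which is spread and not replicate error) and 0.00 over all single-gene probe sets. That member median is the value of the Trp53inp1 probe set with both readings under the floor, so the floor fixed it. Over the 15 member probe sets above the filter the median was 0.02, beside -0.02 over all 21422. With 1 probe set per gene the medians were 0.02 over the 10 genes and -0.01 over the 13146 genes above the filter.

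**Figure D2:**
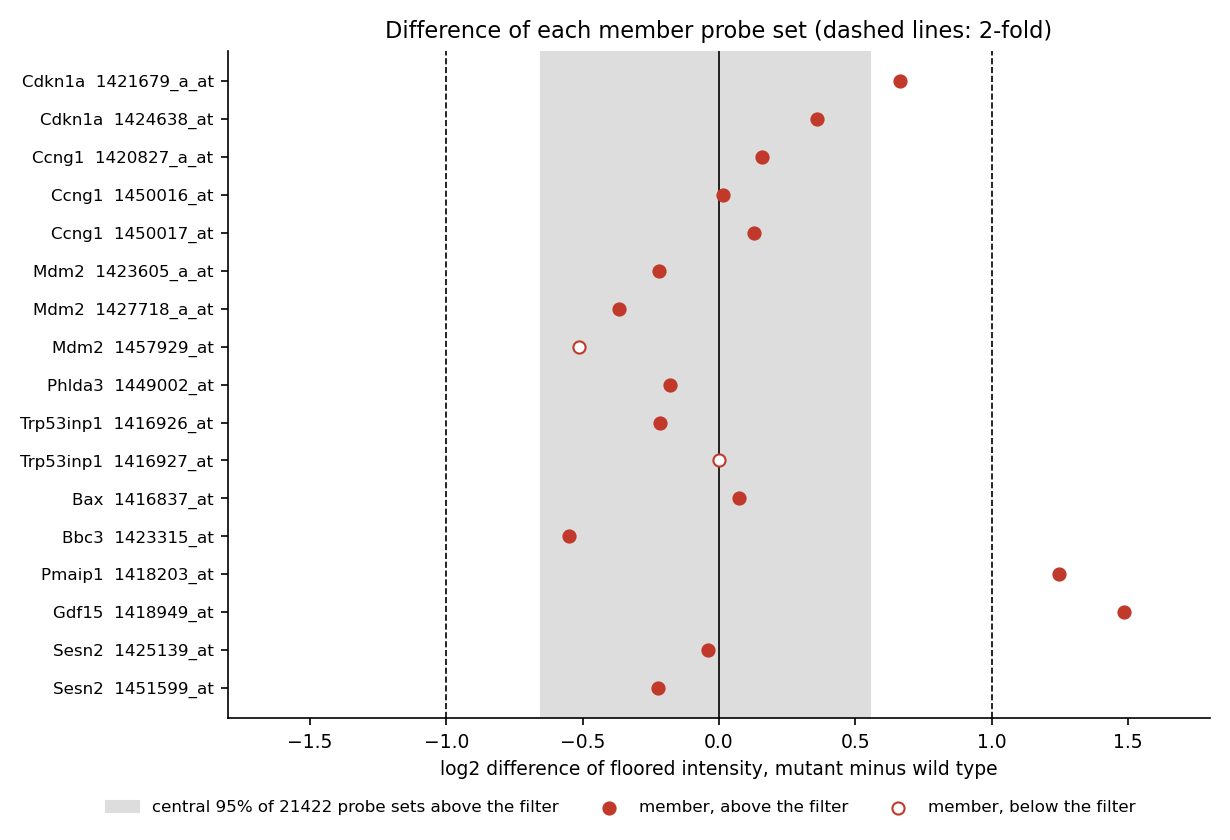
Log2 difference, mutant minus wild type, of each member probe set, with filled points above the filter, open points below it, dashed lines at 2-fold and a grey band for the central 95% of all probe sets above the filter (-0.65 to 0.55). Of the 15 filled points 12 lie inside the band, and the 3 outside it are Gdf15, Pmaip1 and 1 probe set of Cdkn1a, all to the right.

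Cell cycle arrest is the best known output of p53, and Cdkn1a is its main carrier, since p21 binds cyclin-dependent kinases and stops entry into S phase. The Cdkn1a probe set 1424638_at read 268 in the mutant and 209 in the wild type, 1.28-fold higher (log2 difference 0.36). The probe set 1421679_a_at read 198 in the mutant and 125 in the wild type, 1.59-fold higher (0.67). Both probe sets were higher in the mutant. The SD between them was 0.22, beside a median SD of 0.13 between probe sets of 1 gene over 5269 genes, whose 95th percentile was 0.47. Among all probe sets above the filter, 3.94% lay at least as far from 0 as the higher of the pair and 14.7% as far as the lower.

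Ccng1 encodes cyclin G1, which recruits a phosphatase that acts on MDM2 and is switched on by p53 in many mouse tissues. Its probe set 1420827_a_at read 681 in the mutant and 610 in the wild type, 1.12-fold higher (0.16). On 1450017_at the mutant read 121 and the wild type 111, 1.09-fold higher (0.13). On 1450016_at the values were 65.1 in the mutant and 64.4 in the wild type, 1.01-fold higher (0.02). All 3 probe sets were thus slightly higher in the mutant, with an SD of 0.08 between them.

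The sequence before the start of a gene is where p53 acts on several of these targets. RefSeq promoter windows on GRCm38.p6 were matched for 8 of the 10 genes, in 12 windows, Pmaip1 and Trp53inp1 being the others. The 250 bases before each start were searched on both strands for the p53 decamer, the consensus of 10 letters that 1 pair of p53 molecules contacts, and for the full p53 site of 20 letters, a pair of decamers with no gap, with at most 1 letter off. A full site was found in 25 of 32851 windows of that length (0.0761%) and in 2 of the 12 windows of the list, those of Cdkn1a and Ccng1. An exact decamer was found in 7.13% of all windows and in those of Cdkn1a, Ccng1, Mdm2 and Bax. The windows below show these matches in capitals, with that of Gdf15, the gene with the largest difference, beside them. They lie at chr17:29090729-29090978 (+ strand) for Cdkn1a, chr11:40755287-40755536 (- strand) for Ccng1, chr10:117710759-117711008 (- strand) for Mdm2, chr7:45466899-45467148 (- strand) for Bax and chr8:70632457-70632706 (- strand) for Gdf15. Each is written 5′ to 3′ on the strand of its gene.
Cdkn1a: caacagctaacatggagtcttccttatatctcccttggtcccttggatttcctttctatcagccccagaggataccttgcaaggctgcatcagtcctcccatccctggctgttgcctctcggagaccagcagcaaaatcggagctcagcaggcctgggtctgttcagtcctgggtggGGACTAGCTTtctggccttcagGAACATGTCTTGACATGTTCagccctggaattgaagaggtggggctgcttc
Ccng1: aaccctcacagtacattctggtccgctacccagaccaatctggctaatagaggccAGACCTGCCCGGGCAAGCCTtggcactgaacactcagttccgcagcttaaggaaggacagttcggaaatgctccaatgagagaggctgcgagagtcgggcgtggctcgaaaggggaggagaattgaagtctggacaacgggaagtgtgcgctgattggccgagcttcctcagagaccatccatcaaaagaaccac
Mdm2: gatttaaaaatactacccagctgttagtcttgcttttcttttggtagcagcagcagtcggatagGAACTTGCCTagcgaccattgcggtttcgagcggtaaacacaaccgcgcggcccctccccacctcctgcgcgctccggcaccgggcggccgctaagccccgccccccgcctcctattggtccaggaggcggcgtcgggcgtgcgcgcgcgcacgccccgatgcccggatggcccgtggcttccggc
Bax: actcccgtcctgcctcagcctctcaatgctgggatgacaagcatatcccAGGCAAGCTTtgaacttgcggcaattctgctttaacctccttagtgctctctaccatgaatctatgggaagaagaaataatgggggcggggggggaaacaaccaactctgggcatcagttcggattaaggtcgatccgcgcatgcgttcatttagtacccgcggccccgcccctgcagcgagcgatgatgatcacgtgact
Gdf15: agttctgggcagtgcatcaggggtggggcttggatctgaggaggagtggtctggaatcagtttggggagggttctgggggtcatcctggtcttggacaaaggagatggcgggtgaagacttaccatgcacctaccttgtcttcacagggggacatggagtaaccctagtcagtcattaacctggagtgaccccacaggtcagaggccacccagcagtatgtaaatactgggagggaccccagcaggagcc

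The full site begins 51 bases before the start in the Cdkn1a window and 195 bases before it in the Ccng1 window. In the Cdkn1a window a further decamer lies 12 bases ahead of the full one. The second RefSeq start of Cdkn1a, the other start of Gdf15 and the windows of Bbc3, Phlda3 and Sesn2 held no decamer. The letters TGATGNAA, a site of C/EBP and ATF4 pairs, and TGACGTCA, the cyclic AMP response element that ATF factors bind, were in none of the 12 windows, against 3.45% and 1.55% of all windows. The single decamers of Mdm2 and Bax do not overlap a full site, while that of Ccng1 is part of its full site. A match is only a run of letters, and the absence of a match says nothing of sites elsewhere. The pair of genes with a full site had log2 differences of 0.36 and 0.16 on their brightest probe sets, and Gdf15, without one in either window, had 1.48. Pmaip1 had no window to search, and a link between sites and differences was not tested.

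Mdm2 encodes the ligase that marks p53 for breakdown and is itself a p53 target, which closes a feedback loop. The probe set 1423605_a_at read 73.2 in the mutant and 85.1 in the wild type, 1.16-fold lower (-0.22). The dimmer 1427718_a_at read 20.7 in the mutant and 26.7 in the wild type, 1.29-fold lower (-0.37). The probe set 1457929_at, which did not pass the filter, read 1.55 in the mutant, under the floor, and 6 in the wild type, at least 1.43-fold lower. The authors' deposited table, which sets no floor, gives it a fold of -3.88 (negative where the mutant is lower) with bounds of -2.37 and -10.51. All 3 were lower in the mutant, the opposite direction to both Cdkn1a probe sets, and the 2 that passed had an SD of 0.11.

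Phlda3 and Trp53inp1 act on survival and on p53 itself. Phlda3 encodes a small pleckstrin homology protein that keeps the kinase AKT from the membrane. Its 1 probe set read 109 in the mutant and 124 in the wild type, 1.13-fold lower (-0.18). Trp53inp1 encodes a stress protein that promotes p53 phosphorylation and autophagy. It read 296 in the mutant and 344 in the wild type, 1.16-fold lower (-0.22), on 1416926_at. Its other probe set read 2.12 in the mutant and 1.75 in the wild type, both under the floor, and gives no fold. Both genes lay inside the central 95% of all probe sets.

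The 3 genes of mitochondrial apoptosis differed in direction. Bax, which forms pores in the outer mitochondrial membrane, read 227 in the mutant and 216 in the wild type, 1.05-fold higher (0.07). Bbc3, also called Puma, is a BH3-only protein that frees BAX from its inhibitors. It read 15.8 in the mutant and 23.2 in the wild type, 1.47-fold lower (-0.55). The Bbc3 value of the mutant was under the filter, and 6.27% of all probe sets lay at least as far from 0, so this is a difference between dim readings.

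Pmaip1, also called Noxa, is the other BH3-only protein of the list and mainly neutralises the survival protein MCL1. Its probe set 1418203_at read 90.3 in the mutant and 38.0 in the wild type, 2.38-fold higher, a log2 difference of 1.25. It stood at place 59 from the top among the 21422 probe sets and at place 41 among the 13146 genes. Its brighter reading was above the 75th percentile of intensity (83.51), where 27 of 10963 probe sets (0.246%) were at least 2-fold higher. The authors' deposited table gives Pmaip1 a fold of 2.38 with bounds of 2.17 and 2.63.

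Gdf15 encodes a secreted cytokine of the TGF-beta superfamily that rises with tissue stress and lowers appetite through a receptor in the hindbrain. Its only probe set, 1418949_at, read 66.2 in the mutant and 23.7 in the wild type, 2.80-fold higher, a log2 difference of 1.48. It stood at place 35 among the probe sets and at place 22 among the genes, the highest place of the list. Its brighter reading lay between the filter and the 75th percentile, a range in which 85 of 10459 probe sets (0.813%) were at least 2-fold higher. The fold in the authors' deposited table is 2.80, with bounds of 2.59 and 3.04.

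dChip, the program the authors used, derives such bounds from standard errors over the probes of an array. In the 9 member probe sets with both errors at 1 or more, as in 16926 over the array, intensity times error was nearly the same in the 2 arrays (ratio 0.990 to 1.01), so the pair of errors holds 1 quantity. Gdf15 and Pmaip1 are not among these 9. Their products were 27.1 in the mutant and 27.0 in the wild type for Gdf15, and 83.1 and 82.8 for Pmaip1. With 1 array per group the bounds carry no spread between animals. By the criterion in the header of the authors' deposited table, a lower bound over 1.5 and a difference over 20, Gdf15 and Pmaip1 were the 2 member probe sets that qualified, where 0.568% of all probe sets did. The 1.59-fold Cdkn1a probe set had a lower bound of 1.47 in the authors' deposited table and just missed it.

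Sesn2 encodes sestrin 2, a leucine sensor that holds back the growth kinase complex mTORC1 under stress. Its probe set 1425139_at read 59.6 in the mutant and 61.3 in the wild type, within 1.03-fold (-0.04). On 1451599_at the mutant read 25.9 and the wild type 30.2, 1.17-fold lower (-0.22). With array medians set equal, the brighter probe set came to 0.03, so the direction of Sesn2 is not settled. Sesn2 and Gdf15 share known stress inputs, and in this pair of samples their log2 differences were -0.04 and 1.48. Whether a shared input acted on either gene here was not tested.

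**Figure D3:**
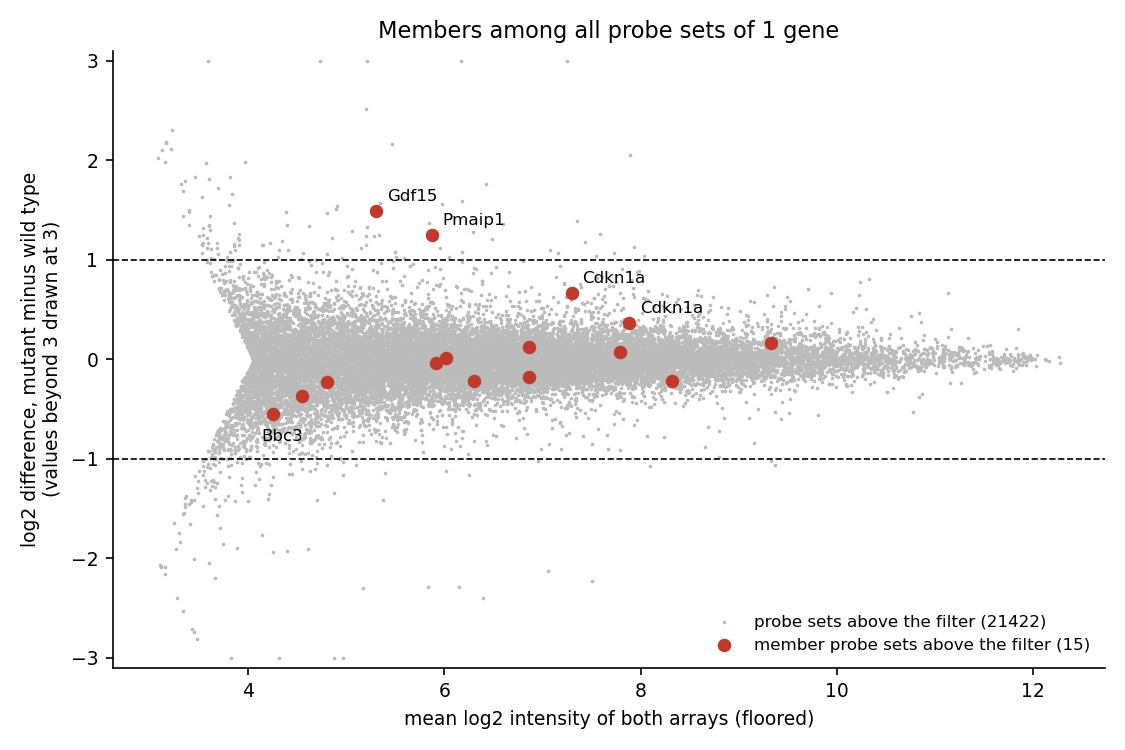
Log2 difference, mutant minus wild type, against the mean log2 intensity of both arrays for the 21422 single-gene probe sets above the filter (grey) and the 15 member probe sets (red), with dashed lines at 2-fold and values beyond 3 drawn at 3. Gdf15 (1.48) and Pmaip1 (1.25) lie above the upper dashed line, Cdkn1a (0.67 and 0.36) lies below it, and the grey cloud is wider among dim probe sets.

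p53 itself gave no single reading. Trp53 had 7 probe sets, of which 3 passed the filter. The brightest, 1457623_x_at, read 51.2 in the mutant and 40.9 in the wild type, 1.25-fold higher (0.32). This is an _x_at set, whose probes may bind other transcripts. The probe set 1427739_a_at read 25.1 in the mutant and 24.9 in the wild type (0.01), and 1426538_a_at read 15.9 in the mutant and 22.9 in the wild type (-0.52). The probe sets disagreed in sign, and p53 is mainly controlled at the level of the protein, which was not measured. Mdm4, a relative of Mdm2 that masks the activating region of p53, was 1.02-fold higher, with 57.3 in the mutant and 56.1 in the wild type (0.03). The other Mdm4 probe set above the filter lay at -0.03.

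In the list of p53 and its regulators 21 of 25 genes passed the filter, 10 of them higher and 11 lower, where 48.0% of all genes above the filter were higher. Their median was 0.00, against -0.01 over all genes. At gene level 1.04% of all genes were at least 2-fold apart, 0.525% higher and 0.517% lower. Here 1 gene was, Trp63, a p53 relative of stratified epithelia, with 6.29 in the mutant and 16.6 in the wild type, 2.63-fold lower (-1.40) at a wild-type value close to the filter. Chek1, a kinase of the replication checkpoint, was 1.32-fold higher (115 in the mutant and 86.5 in the wild type) on the brightest of 3 probe sets. These ran from 0.05 to 0.40. Ppp1r13l, an inhibitor of p53, read 57.1 in the mutant and 40.7 in the wild type on the brightest of 3 probe sets, which ran from -0.42 to 0.49.

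In the list of other p53 target genes, of 37 genes 33 had a probe set and 28 passed the filter. Of the 28, 11 were higher and 17 lower, against 48.0% higher over all genes above the filter. Their median was -0.03, and 22 of the 28 were within 1.2-fold, as were 78.9% of all genes above the filter. Steap3, an iron reductase also known as a p53 target, was the 1 gene at least 2-fold apart, with 50.9 in the mutant and 17.5 in the wild type, 2.90-fold higher (1.54). Only 1 of its probe sets passed the filter, an _x_at set, whose probes may bind other transcripts. Plk3, a polo-like kinase of the stress response, was 1.82-fold higher (18.3 in the mutant and 10.1 in the wild type). Its mutant value was close to the filter and its wild-type value under it. Rprm, which encodes the cell cycle inhibitor reprimo, was 1.37-fold higher (157 in the mutant and 114 in the wild type). Tap1, a peptide transporter of antigen presentation, was 1.57-fold lower (18.2 in the mutant and 28.7 in the wild type).

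**Figure D4:**
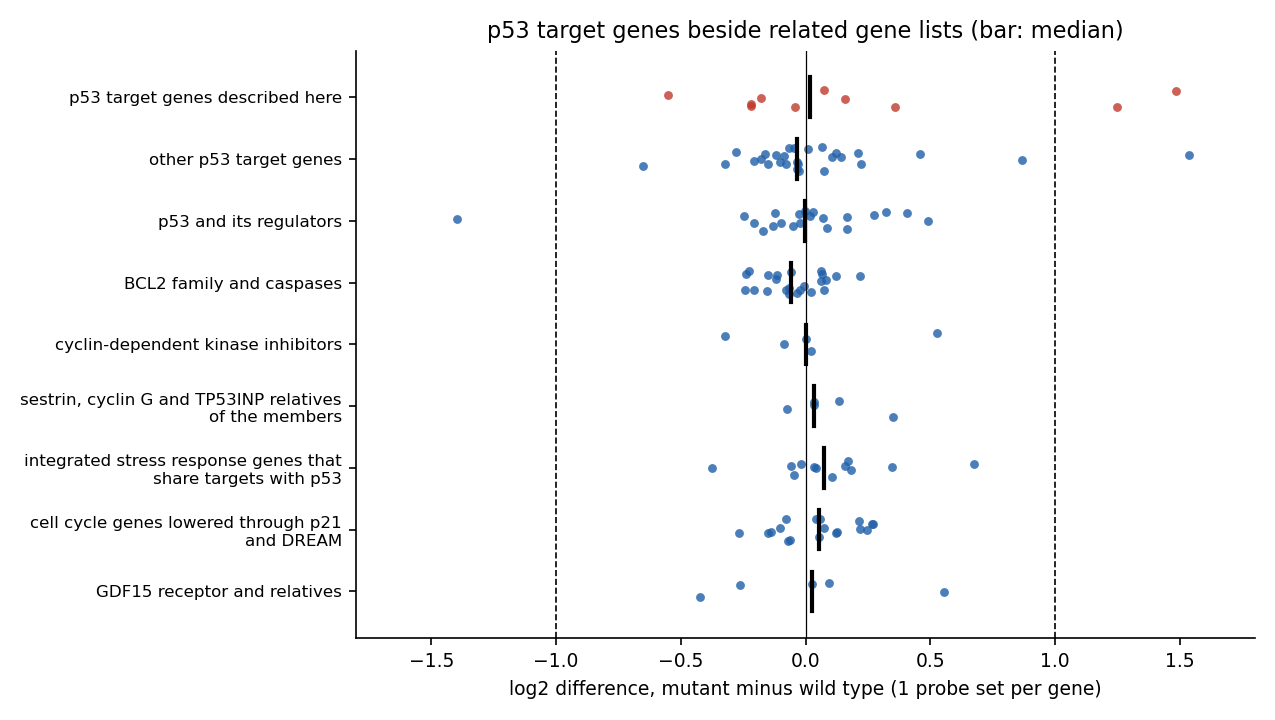
Log2 difference, mutant minus wild type, of the 10 p53 target genes (red) and of the genes of 8 related lists above the filter (blue), 1 probe set per gene, with a bar at each median and dashed lines at 2-fold. The medians run from -0.06 for the BCL2 family and caspases to 0.07 for the integrated stress response, and 4 points lie beyond 2-fold: Gdf15, Pmaip1, Steap3 and Trp63.

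Pmaip1 and Bbc3 act through the BCL2 family. In the list of BCL2 family genes and caspases 23 of 25 genes passed the filter. Of these 8 were higher and 15 lower, against 48.0% higher over all genes above the filter. Their median was -0.06, and all 23 were within 1.2-fold, as were 78.9% of all genes above the filter. The largest differences were those of Casp9, the initiator caspase of the mitochondrial pathway, with 72.4 in the mutant and 85.6 in the wild type (-0.24), and Diablo, an antagonist of caspase inhibitors, with 236 in the mutant and 278 in the wild type (-0.24). The other Casp9 probe set above the filter lay at -0.06. Bmf, a BH3-only gene, was 1.17-fold lower on the brightest of 3 probe sets, which ran from -0.23 to 0.27. Bak1, the partner of BAX in pore formation, was 1.16-fold higher (76.8 in the mutant and 66.0 in the wild type).

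Of 7 other genes named as cyclin-dependent kinase inhibitors, 5 passed the filter, 3 higher and 2 lower, and their median was 0.00. Cdkn2b, which encodes p15, was 1.44-fold higher at low readings (20.9 in the mutant and 14.5 in the wild type). Cdkn1c, which encodes p57 and marks maturing nephron and podocyte cells, was 1.25-fold lower (1305 in the mutant and 1633 in the wild type). Cdkn1b, which encodes p27, was 1.06-fold lower, and Cdkn3 was 1.02-fold higher. p21 lowers mitotic genes through the DREAM repressor complex. All 18 genes of that list passed the filter, 11 higher and 7 lower, against 48.0% higher over all genes. The median was 0.05, and none was 1.5-fold apart, where 4.59% of all genes were. Bub1, a spindle checkpoint kinase, was 1.21-fold higher (222 in the mutant and 184 in the wild type). The mitotic kinases Plk1 and Cdk1 had log2 differences of 0.27 and 0.25, and Cdc25c, a phosphatase that activates CDK1, had -0.27.

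For the paralogs of the other members, 5 of 6 genes had a probe set and all 5 passed. Phlda2, a growth-restraining imprinted gene related to Phlda3, was 1.27-fold higher (69.2 in the mutant and 54.3 in the wild type), and Phlda1 was 1.10-fold higher. The brighter probe set of Sesn3 was 1.02-fold higher (0.03), the other lying at -0.20, and Trp53inp2 was 1.05-fold lower. Of the 9 genes in the list of the GDF15 receptor and relatives, 5 passed the filter. Ret, the signalling partner of the GDF15 receptor and in kidney the GDNF receptor of the ureteric tip, was 1.47-fold higher at low readings (19.6 in the mutant and 13.4 in the wild type). Inha was 1.34-fold lower, Gdf10 had a log2 difference of -0.26 and Gdf9 was 1.07-fold higher. The receptor gene Gfral was not analysed here.

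The integrated stress response shares Gdf15, Pmaip1 and Sesn2 with p53. All 12 genes of that list passed the filter, 8 higher and 4 lower, against 48.0% higher over all genes above the filter. The median of the 12 was 0.07, against -0.01 over all genes. Atf3, a transcription factor that several stresses induce, was 1.59-fold higher (40.9 in the mutant and 25.7 in the wild type). It was the 1 gene of the list at least 1.5-fold apart, where 4.59% of all genes were. Chac1, a glutathione-degrading enzyme, was 1.27-fold higher (36.0 in the mutant and 28.3 in the wild type). Ddit3, which encodes CHOP, was 1.04-fold lower (55.7 in the mutant and 58.0 in the wild type). Nupr1, a stress-induced chromatin protein, was 1.30-fold lower (161 in the mutant and 209 in the wild type) on the brighter of 2 probe sets. The other Nupr1 probe set lay at -0.11. Vldlr, a lipoprotein receptor, was 1.14-fold higher on the brightest of 6 probe sets, which ran from -0.22 to 0.39.

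Markers of other cell types and sex-linked genes also differed between the samples. The median intensity was 16.13 in the mutant and 16.97 in the wild type. Defining kidney genes were bright in both arrays, such as Umod of the loop of Henle (1877 in the mutant and 1981 in the wild type) and Slc34a1 of the proximal tubule (1374 in the mutant and 1099 in the wild type). Summed over its markers, the macrophage list was 735 in the mutant and 592 in the wild type, with 4 of 6 genes higher and none at the floor. Csf1r, at 326 in the mutant and 214 in the wild type, made up most of that gap, while C1qa, C1qb and Cx3cr1 had log2 differences of -0.01, 0.03 and -0.05. The nephron progenitor list was 143 in the mutant and 73.4 in the wild type (3 of 3 higher, of which Cited1 did not pass the filter), and the podocyte list was 878 in the mutant and 1208 in the wild type (4 of 4 lower). The adrenal cortex list was 43.1 in the mutant and 285 in the wild type, with 5 of 6 genes lower, 3 of 6 above the filter, and Hsd3b1, Cyp11b1 and Cyp11b2 under the floor in the mutant. Hsd3b1, at 2.77 in the mutant and 205 in the wild type, made up most of that gap. The chromaffin list was 43.8 in the mutant and 366 in the wild type (5 of 5 lower, with Chga under the floor in the mutant). Most of it came from Chgb (4.51 in the mutant and 216 in the wild type) and Chga (1.19 in the mutant and 94.1 in the wild type). Dbh and Pnmt had log2 differences of -0.29 and -0.33. Xist read 1113 in the mutant and 4.67, close to the floor, in the wild type. All 4 Y-linked genes of the list were lower in the mutant but above the floor there. Ddx3y read 84.2 in the mutant and 394 in the wild type, Eif2s3y 63.8 and 280, Uty 25.8 and 126, and Kdm5d 16.3 and 80.1. Genotype, sex-linked expression and adrenal transcripts thus cannot be told apart in this pair of samples. The part of any of these in the differences of Gdf15, Pmaip1 and Cdkn1a was not tested.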

How the data were processed

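Total RNA of 1 mutant and 1 wild-type kidney sample was read on Affymetrix Mouse 430 2.0 arrays, from 100 ng of RNA per the labels. Per the design text, the authors used dChip. The deposited intensity is dChip's expression index on a linear scale, and the deposited standard errors are signal of the same unit from the probes of 1 array. The deposited fold is a signed score, mutant over wild type, with bounds. Per the file headers, Affymetrix control probe sets were omitted. The normalisation, background step and genome build are not named in the labels or headers used here. Both deposited tables held equal intensities in all 45037 probe sets.

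Symbols came from the deposited annotation, updated through RefSeq GRCm38.p6, and 37579 probe sets named 1 gene. Intensities were floored at 4.2, log2 was taken, and mutant minus wild type was computed with numpy 2.4.6 and pandas 2.3.3. The filter was 16.53 in the brighter array, and each gene took the probe set whose mean log2 intensity was highest. Applying the header criterion to the deposited columns gave 256 probe sets, while the table's footer counts 354, and the reason is not known. The number of arrays limits every value.

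The members and gene lists were chosen with earlier results of these data known. Named were all 10 members, up to 4 genes of each list with the largest difference, and Trp53, Mdm4, Sesn1, Sesn3, Atf3 and Ddit3. Sesn1 had no probe set of its own here. Alternatives changed the scaling, floor, filter, threshold, probe sets and source of the values.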

Additional observations from a re-analysis of the deposited data

How the results depend on the processing

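The count of 2 member probe sets at least 2-fold apart, Gdf15 and Pmaip1, was also 2 with array medians set equal, quantile normalisation, loess, a floor at the 40th percentile, no floor, no filter, without _x_at, _s_at and _a_at probe sets, and with the folds or lower bounds of the authors' deposited table above the filter. Without the filter, an alternative chosen after the data were seen, the deposited folds gave 3, the third being the dim Mdm2 probe set 1457929_at. It was 3 at 1.5-fold. It was 0 with a pseudocount of 32, which pulls dim ratios to 1 by its construction (0.82 for Gdf15 and 0.81 for Pmaip1 on the log2 scale). Over all single-gene probe sets above the filter, 0.112% were at least 2-fold apart with that pseudocount. That share was 0.71% with the floor at the 40th percentile and 1.12% in the main setting. The member count was 1 (Pmaip1) with the filter at the 75th percentile, where 0.246% of all probe sets were at least 2-fold higher. At 3-fold the member count was 0. The authors' header criterion, also chosen after the data were seen, gave 2. The median over the member probe sets stayed between 0.00 and 0.03 under the 10 alternatives tried. Over 90 values of single genes under alternatives, 1 had the opposite sign, Sesn2 with array medians set equal, and 6 moved by more than 0.13, the median SD between probe sets of a gene: Gdf15, Pmaip1 and Bbc3 (-0.21) with the pseudocount, Cdkn1a as the mean of its probe sets (0.51), and Mdm2 as that mean (-0.37) or on its _at probe set (-0.51). No paired analysis was possible because each group has 1 sample. Signal over background limits Bbc3, the dimmer Mdm2 and Trp53inp1 probe sets, and Trp53.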
